A study of Homo sapiens with 6 samples.

Results

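The genes described here are 33 repair genes of base excision, single-strand break repair and end joining, picked by symbol from a deposited table of 62753 genes. All 33 symbols were found, each on 1 row. Messenger RNA was sequenced from cells labelled HepG2, a line from a human hepatocellular carcinoma, in 3 sgPARP1 libraries and 3 WT libraries. The sgPARP1 cells carry the genotype PARP1 KO, made with CRISPR-Cas9, and the WT cells the genotype WT, and no treatment is labelled. The labels do not say whether the edited cells are 1 clone or a pool, nor whether replicates were grown apart. The p-values therefore set the difference between groups only against the spread among sequenced libraries of a group, and that spread may be technical. Values are FPKM, reads scaled by the length of the gene and the reads of the library, and fold changes are sgPARP1 over WT.

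Base excision repair removes damaged or wrong bases. A glycosylase cuts out the base, an AP endonuclease nicks the strand at the empty site, a polymerase fills the gap and a ligase seals it, with XRCC1 as a scaffold. PARP1, which binds strand breaks and marks proteins around them with ADP-ribose chains, brings XRCC1 and its partners to the nick. Breaks of both strands are joined by the Ku heterodimer, the kinase DNA-PKcs and the ligase 4 complex, or, by a backup route, through short matching stretches with POLQ. PARP1 is best known here as a sensor of breaks and as the target of drugs that kill cells with weak homologous recombination, and the comparison asks how transcript levels differ once it is edited.

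PARP1 itself checks the labels. It had 4.31, 4.23 and 4.39 FPKM in sgPARP1 libraries and 31.8, 31.5 and 31.5 FPKM in WT libraries, and the groups lay far apart. On the log2(FPKM + 1) scale the fold change was −2.62 (SE 0.037; limma adjusted p = 7.3e-07). The libraries hold 14842498 to 17305129 reads assigned to genes. The label HepG2 was checked against 16 hepatocyte markers: 8 were listed at 0 in all 6 libraries, among them ALB, AFP, APOB, TTR and SERPINA1, and only FOXA1 and CEBPA reached a mean of 0.5 FPKM. The summed level of the 16 was 5.80 to 6.67 FPKM in sgPARP1 and 6.60 to 7.39 FPKM in WT libraries, nearly all of it FOXA1 and CEBPA. FOXA1 was higher in sgPARP1, at 4.19 to 4.79 FPKM, against 3.89 to 4.13 FPKM in WT libraries. CEBPA was lower in sgPARP1, at 1.597 to 1.875 FPKM, against 2.35 to 3.23 FPKM in WT libraries. The genes of secreted proteins that define hepatocytes are thus listed at or near 0 in cells with that label. MDC1, a mediator at breaks that dividing cells use, is also listed at 0 in all 6 libraries, and whether such zeros come from the cells or from the counting cannot be told apart here. Fibroblast markers summed to 19.2 to 21.7 FPKM in sgPARP1 and 27.1 to 29.9 FPKM in WT libraries, with COL1A1 highest and COL1A2 at 0. These markers did not move alike. LUM had 0.848 to 1.34 FPKM in sgPARP1 and 8.84 to 9.72 FPKM in WT libraries. DCN and FAP were also lower in sgPARP1 libraries. PDGFRB was higher, at 3.26 to 3.54 FPKM in sgPARP1 and 2.37 to 3.13 FPKM in WT libraries. COL1A1 overlapped, at 14.63 to 17.03 FPKM in sgPARP1 and 14.55 to 15.73 FPKM in WT libraries. Leukocyte markers summed to at most 1.97 FPKM and endothelial markers to at most 0.456 FPKM in any library. What part these marker levels have in the repair gene values was not tested.

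The main test called none of the repair genes, which by itself does not show that their levels were alike. Of the 33, 31 had a mean of at least 0.5 FPKM and were tested on log2(FPKM + 1) together with all 13167 genes that passed this filter. None of the 31 passed limma at an adjusted p of 0.05, against 7.96% of all tested genes (3.52% higher and 4.44% lower). By unadjusted p under 0.05, 3 of the 31 (9.68%) were higher, against 12.1% of all tested genes, and none was lower, against 12.3%. The groups did not overlap in 4 of the 31 (12.9%), all higher in sgPARP1, against 16.1% of tested genes that were higher and 14.9% that were lower in this sense. These shares are no larger than those of all genes.

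The direction of the small differences was uneven. The log2 fold change was above 0 in 24 of the 31 genes (77.4%), against 50.9% of all tested genes, with a median of 0.03, against 0.0029 over all tested genes. The range was −0.07 for POLL to 0.27 for NEIL3. In base excision and single-strand break repair 17 of 19 tested genes were above 0, with a median of 0.06, and in end joining 7 of 12, with a median of 0.01. The count above 0 was 23 or 24 of 31 under every scaling tried and 20 without WT replicate 1. Most lists of related genes described below had a like or larger share above 0. It was 78.6% for replication and G1/S, 83.3% for long-patch synthesis, 70.8% for end joining accessories and 94.4% for homologous recombination. The list of single-strand break sensing and ADP-ribose turnover had 44.4%. These counts describe the lists and carry no test.

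For 23 of the 31 genes (74.2%) the 95% interval of the log2 fold change lay wholly within 1.2-fold in either direction, against 42.6% of all tested genes. The 8 others were NEIL2, NEIL3, APEX1, POLB, XRCC1, LIG3, DCLRE1C and LIG4. The scale of log2(FPKM + 1) narrows the intervals of genes near 1 FPKM, and with voom on whole reads, which adds no 1, the count was 16. The share of all tested genes with voom is not given, so whether the repair genes exceed it there is not known. Among the genes whose interval was narrow on both scales were XRCC5, XRCC6, PRKDC and LIG1.

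**Figure D1:**
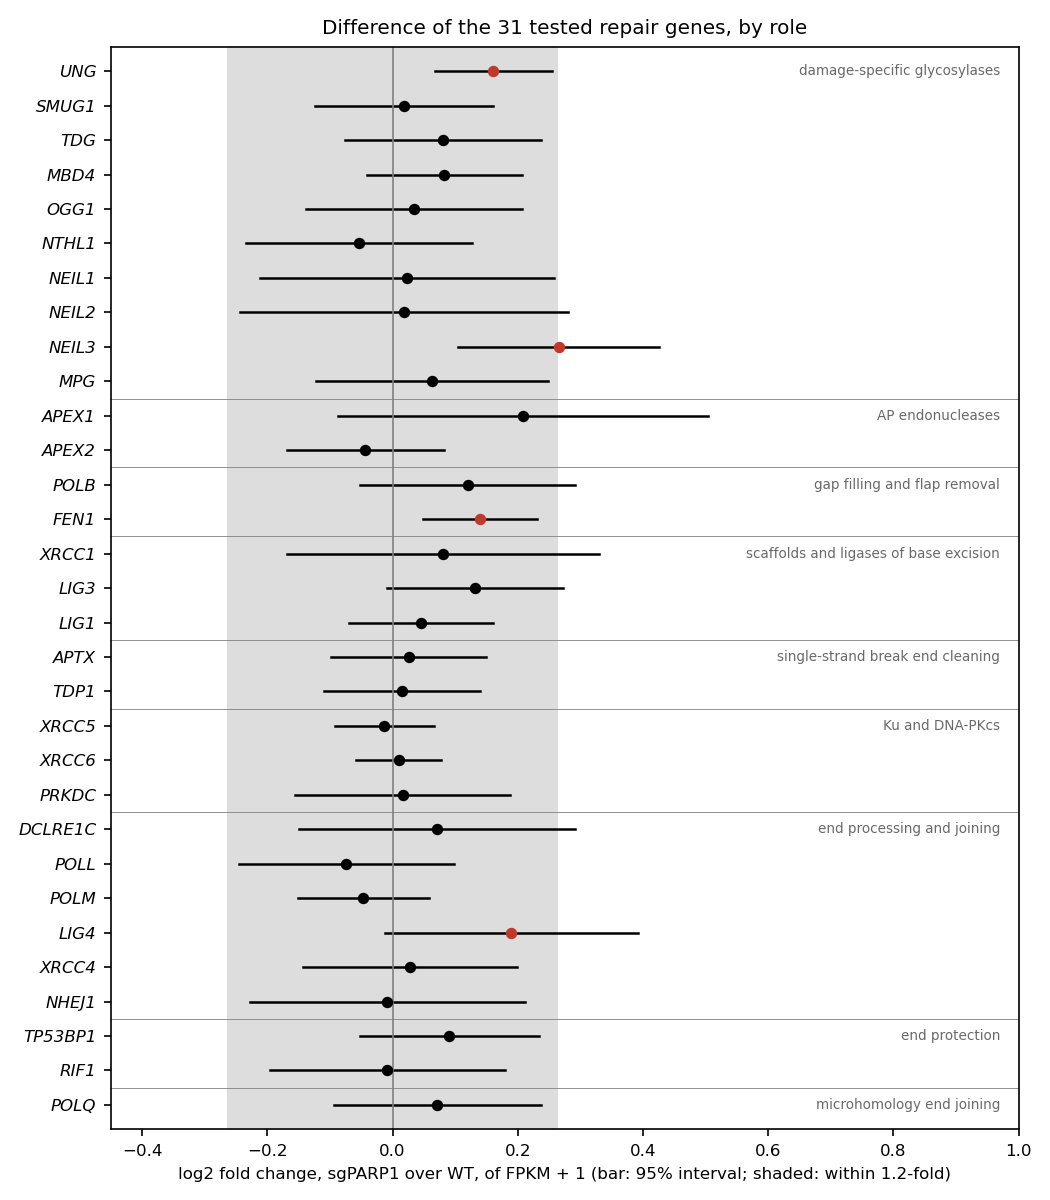
The log2 fold change of FPKM + 1, sgPARP1 over WT, is plotted for the 31 tested genes by role, with 95% intervals from limma as bars and the range of 1.2-fold shaded. Red points mark UNG, NEIL3, FEN1 and LIG4, whose groups did not overlap, and 23 of the bars lie inside the shaded range.

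The levels of the 33 genes spanned more than the differences between groups. XRCC6 was the most abundant at a mean of 190.8 FPKM over the 6 libraries, followed by FEN1 at 127.3, XRCC5 at 90.8, PRKDC at 51.2, UNG at 24.9 and APEX2 at 21.6 FPKM. The ranges of these 6 genes over the libraries did not touch each other or the range of NTHL1, the next gene, so their order holds in every library. From NTHL1 at 16.5 FPKM down to NEIL3 at 9.18 FPKM each gene's range met that of the next, and likewise from POLM at 6.89 down to APEX1 at 2.61 FPKM, and no test was made between neighbours. Of the 21 neighbouring pairs with overlapping ranges 5 kept their order in all 6 libraries, namely XRCC1 over MBD4, MPG over LIG1, POLM over TDP1, POLB over OGG1 and APTX over POLQ, and 16 did not. DCLRE1C, NEIL1 and NEIL2 lay between 0.702 and 1.35 FPKM, NHEJ1 just above the filter at 0.558 FPKM, and MUTYH and APLF under it. FPKM is scaled by a deposited gene length. This length exceeded the longest coding transcript of GENCODE release 29 by more than 1.5 times in 20 of the 33 genes, up to 7.20 times for APTX, whereas the ratio for FEN1 was 0.96, and the order would differ with another length.

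**Figure D2:**
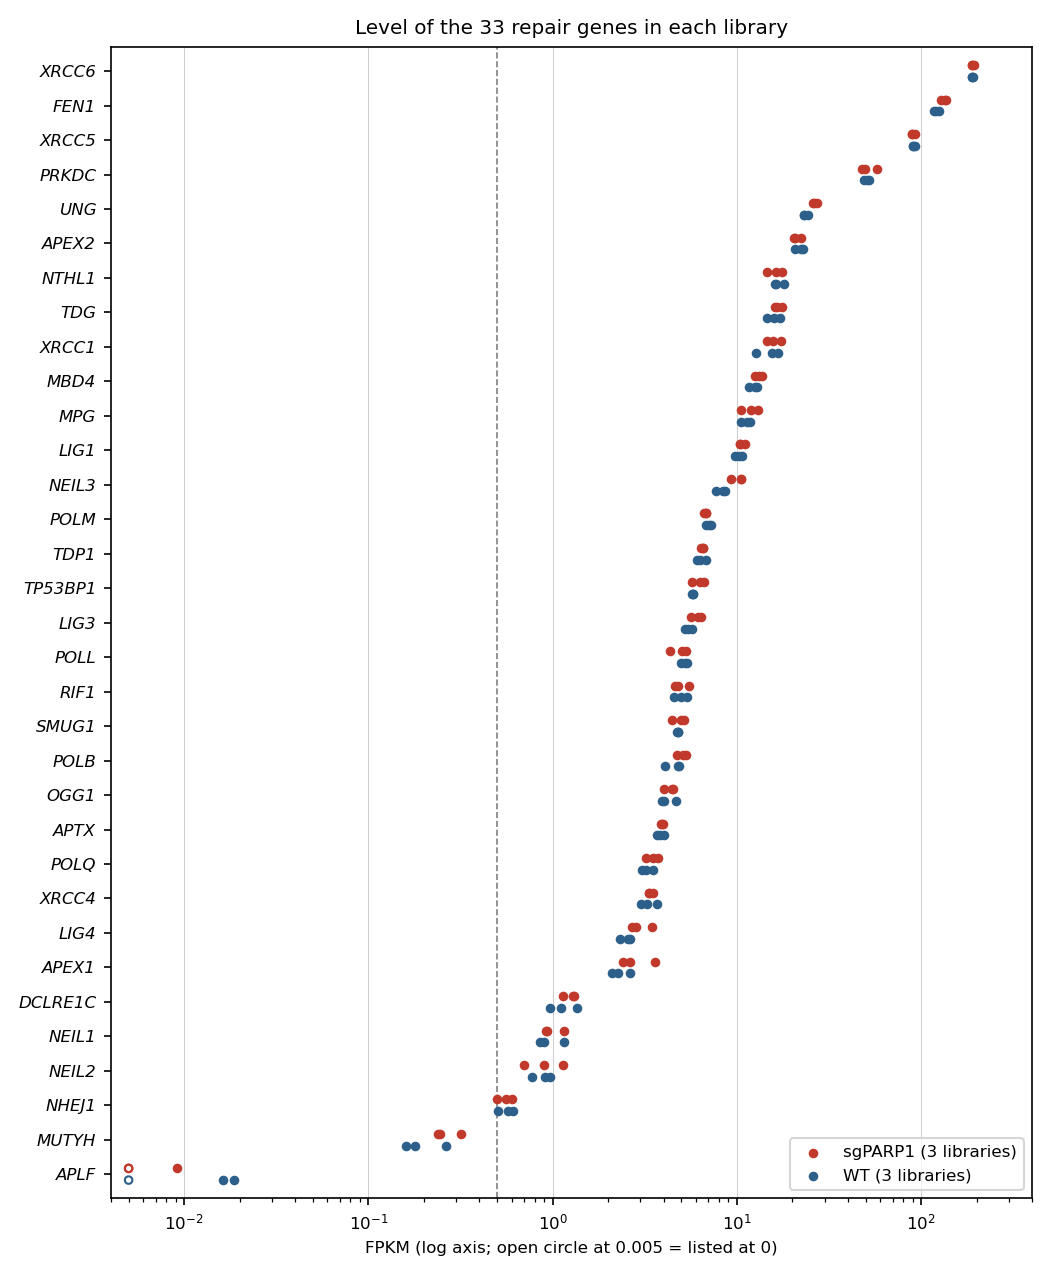
Each point is the FPKM of 1 library on a log axis, with sgPARP1 in red above WT in blue, genes in order of their mean, and the filter of 0.5 FPKM as a dashed line. XRCC6 lies near 190.8 FPKM and APLF at or near 0, and the colours lie close together in nearly every row.

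Among the glycosylases, UNG, which removes uracil from DNA and follows replication forks, came closest to a call. It had 26.2, 25.8 and 27.1 FPKM in sgPARP1 and 24.2, 23.1 and 23.1 FPKM in WT libraries, on 1834 to 2463 reads a library. Every sgPARP1 value lay above every WT value. The mean was 12.3% higher, with a log2 fold change of 0.16, a standard error of 0.039 and a 95% interval of 0.07 to 0.25 (limma adjusted p = 0.0554). NEIL3, a glycosylase for oxidised bases and for crosslinks at replication forks, had 9.25, 10.5 and 10.6 FPKM in sgPARP1 and 7.67, 8.60 and 8.45 FPKM in WT libraries. Its groups did not overlap either, the mean was 22.7% higher, and the log2 fold change was 0.27 (SE 0.067; limma adjusted p = 0.0635). On this scale it was the largest of the 31 genes, but APEX1 was larger by the ratio of means, at 1.232 against 1.227, and without sgPARP1 replicate 2, at a log2 fold change of 0.30 against 0.24.

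Flap endonuclease FEN1, which trims the displaced strand in long-patch repair and matures Okazaki fragments, was the third of this kind. It had 135.6, 128.9 and 136.0 FPKM in sgPARP1 and 124.7, 120.9 and 117.6 FPKM in WT libraries, with no overlap. The mean was 10.3% higher and the log2 fold change was 0.14 (SE 0.038; limma adjusted p = 0.0773). FEN1 shares 4259 bases of its span with FADS2 on the same strand, and FADS2 had 7.62 FPKM. The ligase LIG4, which seals ends in end joining, was also higher in each sgPARP1 library at 2.85, 3.45 and 2.71 FPKM, against 2.32, 2.57 and 2.62 FPKM in WT libraries. sgPARP1 replicate 2 stood above the rest, sgPARP1 replicate 3 only just above WT, and the log2 fold change of 0.19 had an interval of −0.01 to 0.39 (limma adjusted p = 0.229).

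UNG, NEIL3 and FEN1 passed under some other settings and not under others. UNG and NEIL3 passed with voom on whole reads (adjusted p = 0.04996 and 0.0465; 2 of 31, or 6.45%, against 4.91% of all tested genes higher, and none lower, against 6.95%) and with a filter at 5 FPKM (adjusted p = 0.0423 and 0.0345), UNG first in each pair. With that filter 7.1% of all tested genes passed as higher, against 2 of the 18 repair genes tested. UNG and FEN1 passed with values rescaled to TPM (adjusted p = 0.0395 and 0.0400), as did 3.45% of all tested genes on the higher side. With a correction of each library for gene length and GC content, chosen after the data were seen, all 3 passed (limma adjusted p = 0.0242 for UNG, 0.0432 for NEIL3 and 0.00555 for FEN1), as did 5.97% of all tested genes on the higher side. Over all alternatives the adjusted p ran from 0.0242 to 0.173 for UNG, from 0.0345 to 0.154 for NEIL3 and from 0.00555 to 0.225 for FEN1, and the direction held in each. No other gene of the 33 passed under any alternative tried.

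**Figure D3:**
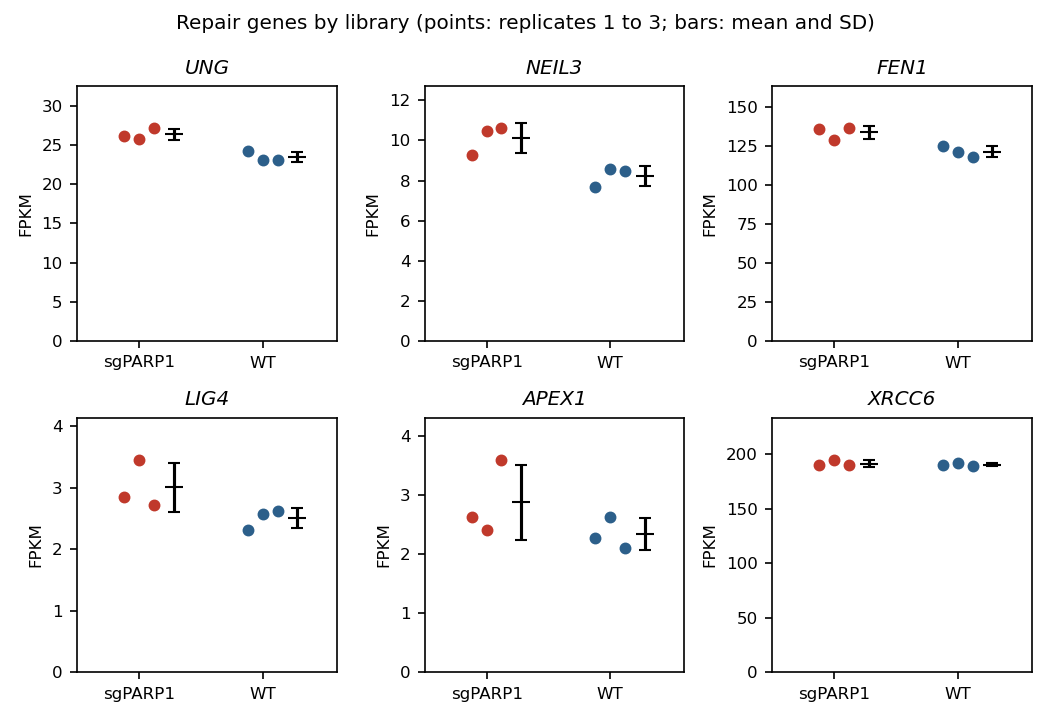
FPKM of UNG, NEIL3, FEN1, LIG4, APEX1 and XRCC6 is plotted by library, sgPARP1 left of WT, with points for the replicates and a bar for the mean and SD of 3 libraries, on axes that start at 0. The groups do not overlap in the first 4 panels, overlap in APEX1, and coincide in XRCC6 near 190.8 FPKM.

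UNG, NEIL3 and FEN1, with LIG1 and POLQ, were grouped as genes expressed in S phase, while DNA is copied, with earlier results of these data known. Their expression over the cell cycle was not measured here. LIG1 stood at a log2 fold change of 0.05 and POLQ at 0.07. The 5 include all 3 repair genes with an unadjusted p under 0.05, so a comparison with the other 26 tested genes would be fixed by the choice, and none is drawn. A comparator list of 28 tested replication and G1/S genes had a median of 0.08. RRM2, GINS1 and GINS2 were called higher (10.7%, against 3.52% of all tested genes) and none lower, against 4.44%. By unadjusted p under 0.05, 9 (32.1%) were higher and 1 (3.57%) lower, against 12.1% and 12.3% of all tested genes. The 3 calls became 7 with voom, 7 with a filter at 5 FPKM, 11 with the length and GC correction, 1 without the trend, 0 without sgPARP1 replicate 1 or WT replicate 2, and 1 without any of the other 4 libraries. With voom the 7, all higher, were 25% of the list, against 4.91% of all tested genes. On the higher side 7.1% of all tested genes passed with the filter at 5 FPKM and 5.97% with the length and GC correction. RRM2, the ribonucleotide reductase subunit, had 31.01 ± 1.1 FPKM in sgPARP1 and 25.1 ± 1.0 FPKM in WT libraries (SD, n = 3 each; limma adjusted p = 0.0134, and 0.0542 without sgPARP1 replicate 1 and 0.0623 without WT replicate 2; 0.00183 to 0.0623 over the alternatives). In bulk libraries, more cells in S phase and more of these transcripts per cell cannot be told apart, and their part in the repair gene values was not tested.

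The upstream windows of the 4 genes whose groups did not overlap are shown as the sequences next to the start of those genes. RefSeq gives a window, on build GRCh38.p14, for 28 of the 33 genes, all but SMUG1, NEIL2, POLB, XRCC5 and PRKDC, and the 250 bases before the annotated start are printed in the direction of the gene. Capitals mark CCAAT and GCATGCGC, the core of the motif of the factor NRF1, on either strand.
UNG, chr12:109097347-109097596, plus strand: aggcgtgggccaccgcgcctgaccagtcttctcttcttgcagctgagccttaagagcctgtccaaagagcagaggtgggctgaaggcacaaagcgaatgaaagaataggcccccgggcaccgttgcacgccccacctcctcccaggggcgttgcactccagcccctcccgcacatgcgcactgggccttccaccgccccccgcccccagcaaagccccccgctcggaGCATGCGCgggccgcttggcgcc
NEIL3, chr4:177309624-177309873, plus strand: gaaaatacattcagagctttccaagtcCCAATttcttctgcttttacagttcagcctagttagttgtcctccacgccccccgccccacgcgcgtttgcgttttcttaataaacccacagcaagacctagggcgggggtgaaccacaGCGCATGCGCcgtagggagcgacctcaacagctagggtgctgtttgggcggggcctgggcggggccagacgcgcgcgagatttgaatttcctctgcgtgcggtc
FEN1, chr11:61792661-61792910, plus strand: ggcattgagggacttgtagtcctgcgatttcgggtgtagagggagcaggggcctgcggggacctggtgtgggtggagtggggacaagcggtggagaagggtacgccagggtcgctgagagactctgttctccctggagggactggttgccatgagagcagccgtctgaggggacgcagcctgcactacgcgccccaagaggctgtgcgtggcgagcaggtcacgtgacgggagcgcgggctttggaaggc
LIG4, chr13:108218350-108218599, minus strand: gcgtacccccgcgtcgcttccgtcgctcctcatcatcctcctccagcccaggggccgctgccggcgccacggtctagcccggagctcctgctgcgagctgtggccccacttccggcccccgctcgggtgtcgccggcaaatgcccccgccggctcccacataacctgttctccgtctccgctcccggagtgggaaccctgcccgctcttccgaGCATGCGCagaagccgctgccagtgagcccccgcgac

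Motifs were searched on both strands in these 250 bases. E2F sites, spelled TTTCCCGC, TTTGCCGC, TTTCGCGC or TTTGGCGC, which factors of the E2F family bind in replication genes, were in the window of LIG1 and of no other of the 28, against 2.78% of 34786 RefSeq windows. CCAAT was in 15 of 28 (53.6%), against 32.0% of all windows, and the GC box GGGCGG in 21 of 28, against 42.6%. The GC content of the window had a median of 64.6% in the 28 and 58.0% in all windows. GCATGCGC, chosen after the windows were read, was in those of UNG, NEIL3, LIG4 and TDP1, against 2.57% of all windows, and in NEIL3 it was matched at overlapping places on both strands. TATAAA was in the window of DCLRE1C alone, and TGACGTCA in none of the 28, against 10.8% and 1.64% of all windows. A match describes letters, not binding.

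The other uracil and thymine glycosylases had overlapping groups. TDG, which removes thymine and oxidised methylcytosine opposite guanine, had 16.1, 17.7 and 16.6 FPKM in sgPARP1 and 14.6, 15.8 and 17.1 FPKM in WT libraries, with overlapping groups. MBD4, a glycosylase with a methyl-CpG binding domain, had 12.6, 13.6 and 13.1 FPKM in sgPARP1 and 11.7, 12.5 and 12.8 FPKM in WT libraries. Both stood at a log2 fold change of 0.08. SMUG1, a second uracil glycosylase, had 4.87 ± 0.38 FPKM in sgPARP1 and 4.78 ± 0.040 FPKM in WT libraries (SD, n = 3 each), a log2 fold change of 0.02 with an interval of −0.12 to 0.16. UNG was thus 5.43 times as abundant as SMUG1 per length in sgPARP1 and 4.91 times in WT libraries, and the ratio lay higher in each sgPARP1 library (exact two-sided permutation p = 0.1, which this design cannot go below; 0.48 adjusted over 8 ratios).

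None of the glycosylases for oxidised and alkylated bases other than NEIL3 had groups that did not overlap. NTHL1, which removes oxidised pyrimidines, had 16.3, 14.7 and 17.6 FPKM in sgPARP1 and 18.1, 16.4 and 16.0 FPKM in WT libraries, the only glycosylase with a log2 fold change below 0, at −0.05. OGG1, which removes oxidised guanine, had 4.33 ± 0.26 FPKM in sgPARP1 and 4.21 ± 0.40 FPKM in WT libraries, and MPG, which removes alkylated purines, 11.8 ± 1.2 and 11.3 ± 0.63 FPKM in the same order (SD, n = 3 each). Their log2 fold changes were 0.03 and 0.06. TADA3, on the strand opposite OGG1, had 17.3 FPKM, and NPRL3, opposite MPG, 11.7 FPKM. NEIL1 and NEIL2 were low, at 0.859 to 1.15 FPKM and 0.702 to 1.14 FPKM over the 6 libraries, NEIL2 on 37 to 59 reads, and each stood at a log2 fold change of 0.02. Per length, NEIL3 thus exceeded its relatives NEIL1 and NEIL2 in all 6 libraries, with a lowest value of 7.67 FPKM against their highest of 1.15 FPKM.

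MUTYH and APLF were too low to test. MUTYH, which removes adenine paired with oxidised guanine, had 0.319, 0.246 and 0.240 FPKM in sgPARP1 and 0.159, 0.179 and 0.263 FPKM in WT libraries, on 16 to 29 reads. The groups overlapped. An unnamed gene on the same strand covers 11632 bases of the MUTYH span and was listed at 0, and TOE1 on the other strand, with 842 bases shared, had 17.5 FPKM. APLF, a histone chaperone and end joining factor, had 0, 1 and 0 reads in sgPARP1 and 0, 2 and 2 reads in WT libraries, all under the 3 reads that a count of 0 allows, so no fold is given.

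In all, the 11 glycosylases summed to 105.8 ± 2.8 FPKM in sgPARP1 and 99.0 ± 0.47 FPKM in WT libraries (SD, n = 3 each). UNG made up 24.9% ± 0.05 of this sum in sgPARP1 and 23.7% ± 0.51 in WT libraries, NEIL3 9.56% ± 0.67 and 8.33% ± 0.54 in the same order. NTHL1 had the smaller share in sgPARP1, at 15.3% ± 1.04, against 17.002% ± 1.04 in WT libraries, the widest difference of the 11 shares. TDG made up 15.9% ± 1.0 in sgPARP1 and 16.0% ± 1.3 in WT libraries, MBD4 12.4% in either group, and MPG 11.2% ± 1.1 and 11.4% ± 0.61.

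Of the AP endonucleases, APEX2 is listed with the higher FPKM in every library; whether the low APEX1 values come from the cells or from the counting was not tested. APEX1, the main AP endonuclease of human cells, had 2.64, 2.41 and 3.60 FPKM in sgPARP1 and 2.27, 2.64 and 2.11 FPKM in WT libraries, on 60 to 117 reads. sgPARP1 replicate 3 stood above the other 5 libraries, which overlapped. The log2 fold change of 0.21 had an interval of −0.09 to 0.50, the widest of the 31 genes, and no difference in APEX1 was detected. The part of read depth in this width was not tested. APEX2, a weaker AP endonuclease that also trims 3′ ends, had 22.4, 20.5 and 20.8 FPKM in sgPARP1 and 22.7, 20.7 and 22.3 FPKM in WT libraries, a log2 fold change of −0.04. The listed FPKM of APEX1 was 0.136 ± 0.032 of that of APEX2 in sgPARP1 and 0.107 ± 0.017 in WT libraries (exact permutation p = 0.3). In the table, 92 bases of APEX1 overlap PIP4P1 on the other strand.

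Of the genes of gap filling and sealing, POLB, LIG3, XRCC1 and LIG1 had overlapping groups, and none passed the test. Their log2 fold changes were above 0 with all libraries, but that of XRCC1 was −0.02 without WT replicate 2. POLB, the main gap-filling polymerase, had 4.76, 5.07 and 5.32 FPKM in sgPARP1 and 4.87, 4.09 and 4.77 FPKM in WT libraries, with a log2 fold change of 0.12 (limma adjusted p = 0.363). LIG3, the ligase that XRCC1 holds and the sole ligase of mitochondria, had 6.37, 6.16 and 5.64 FPKM in sgPARP1 and 5.70, 5.21 and 5.40 FPKM in WT libraries. Only sgPARP1 replicate 3 overlapped WT, and the log2 fold change of 0.13 had an interval of −0.009 to 0.27 (limma adjusted p = 0.229). XRCC1 had 15.7, 14.5 and 17.4 FPKM in sgPARP1 and 16.7, 12.8 and 15.5 FPKM in WT libraries, with wide overlap and a log2 fold change of 0.08. LIG1, the replicative ligase that also seals long patches, had 10.6 ± 0.36 FPKM in sgPARP1 and 10.2 ± 0.43 FPKM in WT libraries (SD, n = 3 each).

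The ratios of these partners overlapped between groups. XRCC1 per length was 2.63 ± 0.39 times LIG3 in sgPARP1 and 2.75 ± 0.26 times in WT libraries (exact permutation p = 0.9), and LIG1 was 1.76 ± 0.17 times LIG3 in sgPARP1 and 1.88 ± 0.013 times in WT libraries (exact permutation p = 0.4). The end-cleaning enzymes had overlapping groups. APTX, which removes AMP left by a failed ligation, had 3.93 ± 0.057 FPKM in sgPARP1 and 3.85 ± 0.18 FPKM in WT libraries, and TDP1, which frees topoisomerase 1 from DNA ends, 6.49 ± 0.12 and 6.42 ± 0.37 FPKM in the same order (SD, n = 3 each). Their log2 fold changes were 0.03 and 0.01.

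Ku and DNA-PKcs, which hold broken ends, were abundant, and the Ku subunits had the narrowest intervals of the 31 genes. XRCC6, the Ku70 subunit, had 189.9, 194.6 and 189.6 FPKM in sgPARP1 and 189.9, 191.6 and 188.8 FPKM in WT libraries, on 9222 to 10745 reads. The groups coincided, and the interval was −0.06 to 0.08 on the log2(FPKM + 1) scale and −0.07 to 0.08 with voom. XRCC5, the Ku80 subunit, had 89.4, 93.0 and 88.8 FPKM in sgPARP1 and 90.3, 90.9 and 92.5 FPKM in WT libraries, with an interval of −0.09 to 0.07. XRCC6 was 2.12 ± 0.022 times XRCC5 per length in sgPARP1 and 2.08 ± 0.038 times in WT libraries (exact permutation p = 0.3). PRKDC, the kinase DNA-PKcs, had 49.4, 57.5 and 47.7 FPKM in sgPARP1 and 48.9, 51.2 and 52.4 FPKM in WT libraries, with sgPARP1 replicate 2 above the rest and a log2 fold change of 0.02.

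The enzymes that process and join ends were lower in level. DCLRE1C, the nuclease Artemis, had 1.25 ± 0.086 FPKM in sgPARP1 and 1.14 ± 0.19 FPKM in WT libraries. The polymerases of end joining, POLL and POLM, had 4.89 ± 0.48 and 6.76 ± 0.078 FPKM in sgPARP1 and 5.19 ± 0.22 and 7.02 ± 0.23 FPKM in WT libraries (SD, n = 3 each). Their log2 fold changes of −0.07 and −0.05 were the lowest of the end joining genes. XRCC4, the partner that stabilises ligase 4, had 3.51, 3.32 and 3.34 FPKM in sgPARP1 and 3.25, 3.70 and 3.003 FPKM in WT libraries, a log2 fold change of 0.03. XRCC4 was 1.14 ± 0.16 times LIG4 per length in sgPARP1 and 1.33 ± 0.16 times in WT libraries, with overlapping values (exact permutation p = 0.3). NHEJ1, the factor XLF that bridges ends, stood at a log2 fold change of −0.01 on 80 to 110 reads. An unnamed gene on the same strand covers 85541 bases of the NHEJ1 span, at 0.0166 FPKM.

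The genes that act in the choice between end joining and resection had overlapping groups too. TP53BP1, which shields ends from resection, had 6.34, 6.64 and 5.69 FPKM in sgPARP1 and 5.80, 5.81 and 5.70 FPKM in WT libraries, with sgPARP1 replicate 3 below all WT libraries and a log2 fold change of 0.09. RIF1, its effector, had 4.78, 5.47 and 4.59 FPKM in sgPARP1 and 4.55, 5.003 and 5.39 FPKM in WT libraries, a log2 fold change of −0.01. Their ratio was 1.26 ± 0.058 in sgPARP1 and 1.16 ± 0.11 in WT libraries (exact permutation p = 0.3). POLQ, the polymerase of microhomology end joining, had 3.23, 3.72 and 3.51 FPKM in sgPARP1 and 3.22, 3.05 and 3.53 FPKM in WT libraries. The groups overlapped, and the interval was −0.09 to 0.24 on the log2(FPKM + 1) scale and −0.09 to 0.27 with voom, whose log2 scale adds no 1.

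Libraries of 1 group differed from each other in an ordered way. The deviation of each gene from its group mean was correlated with the GC content of its transcripts across the 31 genes, with Pearson's r of 0.37, −0.67 and 0.49 in sgPARP1 replicates 1, 2 and 3, and of 0.67, −0.25 and −0.54 in WT replicates 1, 2 and 3. Over all tested genes with a GC value the same r were 0.09, −0.27 and 0.20 in sgPARP1 and 0.28, −0.10 and −0.18 in WT libraries. Gene length on a log2 scale also correlated with the deviations of the 31 genes. Its r was −0.03, 0.49 and −0.56 in sgPARP1 and −0.27, −0.13 and 0.48 in WT replicates 1, 2 and 3. The parts of GC content and length were not separated. These are descriptions across genes, which share a library and are not replicates. AT-rich genes such as RIF1, PRKDC and TDG were high in sgPARP1 replicate 2, and RIF1 and TDG also in WT replicate 3, while GC-rich genes such as NTHL1 and XRCC1 were high in sgPARP1 replicate 3 and WT replicate 1. LIG4, with the lowest GC content of the 31 at 35.7%, was highest in sgPARP1 replicate 2, and its log2 fold change ran from 0.11 to 0.25 over the alternatives.

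**Figure D4:**
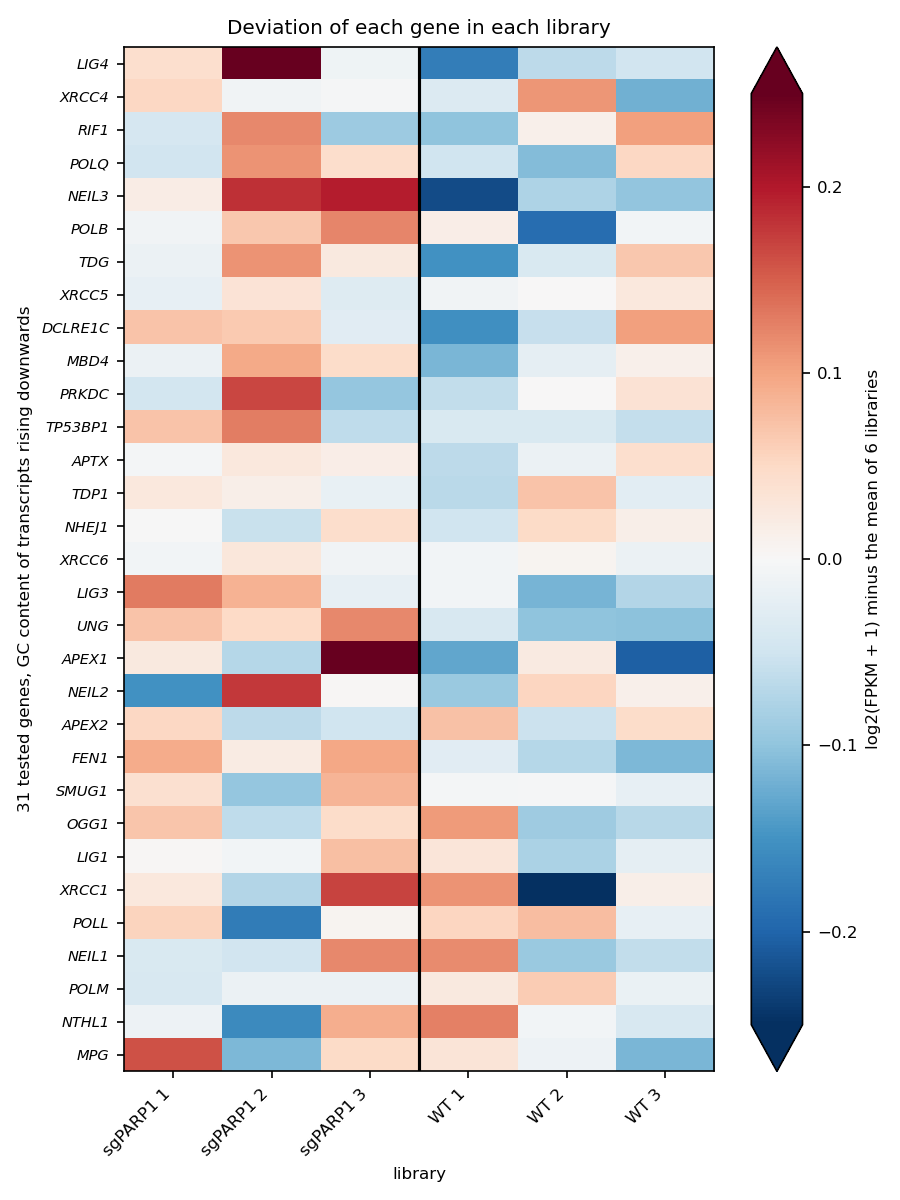
The colour gives log2(FPKM + 1) minus the mean of the 6 libraries for each of the 31 tested genes, from AT-rich at the top to GC-rich at the bottom, with sgPARP1 libraries left of WT libraries. sgPARP1 replicate 2 is mostly red in the upper rows and blue near the bottom, and only a few rows, such as those of UNG, NEIL3 and FEN1, have 1 colour per group.

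Other genes of these pathways, on lists of non-members, gave a few calls. In a list of 18 genes of the long-patch synthesis machinery, 3 rose and none fell, against 3.52% and 4.44% of all tested genes, and by unadjusted p under 0.05 the numbers were 8 and 0, against 12.1% and 12.3%. POLE3, a histone-fold subunit of polymerase epsilon, had 64.7 ± 1.6 FPKM in sgPARP1 and 54.3 ± 1.7 FPKM in WT libraries, a log2 fold change of 0.25 (SD, n = 3 each; limma adjusted p = 0.0129, and 0.0542 without sgPARP1 replicate 1 and 0.0531 without WT replicate 3; 0.0046 to 0.0542 over the alternatives). RPA2, of the single-strand binding complex, and RFC1, of the clamp loader, were 1.18-fold and 1.16-fold higher (limma adjusted p = 0.0335 and 0.0265), but RPA2 passed with 1 of the 6 single libraries left out and RFC1 with 0. PCNA, the sliding clamp that FEN1 and LIG1 bind, had 239.8, 244.02 and 253.3 FPKM in sgPARP1 and 224.8, 227.6 and 219 FPKM in WT libraries, without overlap (limma adjusted p = 0.0644).

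Among 24 tested accessories of end joining 1 rose and none fell, a share of 4.17%, near the 3.52% of all tested genes. By unadjusted p under 0.05, 5 (20.8%) were higher and none lower, against 12.1% and 12.3% of all tested genes. RNF8, the ubiquitin ligase that starts TP53BP1 recruitment at breaks, had 10.2, 9.75 and 9.74 FPKM in sgPARP1 and 6.63, 7.35 and 6.98 FPKM in WT libraries, a 1.42-fold rise that passed under all 16 alternatives (limma adjusted p = 0.00398). SHLD3, of the shieldin complex, had 1.598 ± 0.37 FPKM in sgPARP1 and 1.01 ± 0.29 FPKM in WT libraries (SD, n = 3 each; limma adjusted p = 0.174). Among 9 tested genes of single-strand break sensing and ADP-ribose turnover PARP1 alone passed. PARP2, which shares the role of PARP1 at nicks, had 5.66, 3.53 and 4.33 FPKM in sgPARP1 and 9.64, 6.85 and 4.72 FPKM in WT libraries, and its groups overlapped through WT replicate 3 (log2 fold change −0.52 with a standard error of 0.237; limma adjusted p = 0.232). The homologous recombination comparator, 18 genes tested, had no limma call and 2 higher with voom, against 4.91% of all tested genes, and 5 higher and none lower by unadjusted p under 0.05, against 12.1% and 12.3%. Its median was 0.09 and 17 of the 18 (94.4%) were above 0, a larger share than the 77.4% of the repair genes. With 1 library left out, 1 to 3 genes of the long-patch, accessory and sensing lists passed besides PARP1, against 4 with all libraries, and the fewest passed without sgPARP1 replicate 1 or WT replicate 3. No difference between the lists was tested.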

How the data were processed

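Messenger RNA libraries were made from total RNA, per the labels' protocols. The deposited table gives FPKM per gene, which the authors made by scaling reads to gene length and library size, per the file headers, for 3 sgPARP1 and 3 WT libraries, with Ensembl IDs, symbols, coordinates and gene lengths in bases for 62753 genes; 1 line was emptied. The submitters' processing notes list the builds GRCm38, mm10 and hg38 without saying what each was for. The IDs shared with GENCODE release 29 (58260) overlap their gene there in 99.9% of cases, so coordinates are human. Aligner, counting tool and use of strand are not stated in these sources, so reads of a gene and of one that overlaps it, or of its pseudogenes, cannot be told apart: 13 of the 33 genes overlap a gene of at least 0.5 FPKM on the other strand, and 6 have pseudogenes named after them.

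FPKM times gene length lay within 0.02 of a whole read for every value up to 200 reads, which gave the reads per library. The divisor behind FPKM was 0.998 to 1.01 of these totals.

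Values were tested as log2(FPKM + 1) for genes averaging 0.5 FPKM or more with limma 3.58.1 (R 4.3.3; moderated test with a trend, Benjamini-Hochberg adjustment over all 13167 tested genes at 0.05, 95% intervals from the same fit). The fit was tested on simulated data with known changes. Within-library ratios of FPKM were tested by exact two-sided permutation. Alternatives were pseudocounts of 0.1 and 0.5, no filter, a filter of 5 FPKM, TPM, trimmed-mean scaling, no trend, a replicate block, voom on the whole reads, each library left out, and a length and GC correction (GC known for 97.5% of genes) added later. The planned count models (quasi-likelihood and negative binomial) were not run; voom was the one model fitted to the recovered reads. All 33 genes are named; of non-member lists, genes past the test with the largest change, filled up to 2, except in the homologous recombination list, whose single genes are not reported here. PCNA, COL1A1, LUM, COL1A2, DCN, FAP, PDGFRB and MDC1 were chosen after their values were seen. The members and lists were chosen with earlier results of these data known.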

Additional observations from a re-analysis of the deposited data

How the results depend on the processing

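All genes past the test numbered 1048, 587 with no filter on low values, 550 with the replicate block and 1670 with the length and GC correction, and 413 to 654 with a library left out. Without sgPARP1 replicate 1 the count was 417, without replicate 2 654 and without replicate 3 626, and without WT replicate 1, 2 or 3 it was 557, 413 and 544. Of the 33 repair genes none passed, but 2 with a filter of 5 FPKM (all genes higher 7.1%), 2 with TPM (3.45%), 2 with voom (4.91%) and 3 with the length and GC correction (5.97%); 0 passed with any library left out. Intervals inside 1.2-fold numbered 23, 15 with a filter of 5 FPKM, where 18 genes were tested, and 15 to 18 with a library left out (15 without sgPARP1 replicate 3). The median log2 fold change of the repair genes, 0.0342, was 0.0435 with a pseudocount of 0.1, 0.0549 with a filter of 5 FPKM, 0.0445 with voom and 0.0258 to 0.0492 with a library left out. The partner genes past the test, PARP1 apart, numbered 4, 2 without the trend, 2 with the replicate block and 1 to 3 with a library left out (1 without sgPARP1 replicate 1 or WT replicate 3; 2 without sgPARP1 replicate 3, WT replicate 1 or WT replicate 2). The cause of these moves was not tested, save that a library left out leaves fewer samples. Of 483 values of single repair genes under the alternatives 26 had another sign, none of them called, and 16 of 31 genes kept their sign throughout. The log2 fold change of PARP1 passed under every alternative.

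Libraries that share a replicate number deviated together only weakly (r of 0.04, 0.08 and −0.03 over tested genes for numbers 1, 2 and 3), and not every library correlated best with its own number, so the numbers were not taken as pairs. With the replicate block no repair gene passed. The log2 differences of the ratios XRCC1 to LIG3 and POLL to POLM, −0.07 and −0.04 with all libraries, were 0.0054 and 0.05 without sgPARP1 replicate 2, and no ratio passed a test. APEX1, NEIL2, NHEJ1, MUTYH and APLF rest on few reads, with at most 117 in any library. The alternatives with edgeR and DESeq2 on the reads recovered from FPKM were not run; voom was.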
